A study of Mus musculus with 7 samples.

Results

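Camta1, Gse1, Zfhx3, Tshz2, Sox5 and Rbms3 are 6 long mouse genes that hold many regions of 5-methylcytosine (5mC) enrichment in cultured hippocampal neurons. Regions were assigned to a gene when they overlapped its RefSeq gene body (GRCm38, the chromosome coordinates of mm10) or the 1 kb on either side. By this rule 727 of the 133337 active regions of the series lay in the 6 genes. The genes were named for how many regions they hold and how high these are, over all libraries together. Numbers of regions per length and heights are therefore given below as a description, while the comparison of KCl with untreated cultures did not enter the choice.

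All cultures came from hippocampi of C57BL/6J embryos at stage E18.5, grown for 11 days in neurobasal medium with added L-glutamic acid and with the antimitotic AraC at medium changes. The untreated group had 3 libraries. The other 3 came from cultures given 55 mM KCl, which depolarises neurons, for 4 h. A single pooled input library was not analysed here. DNA fragments carrying 5mC were pulled down with an antibody and sequenced (MeDIP-seq). The labels name replicates without tying them to cultures or animals, so p-values measure only how far these 6 samples spread, part or all of which may be technical.

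Cytosine methylation in mammals sits mostly at CG dinucleotides. It is sparse at CG-rich promoters of many active genes and common in the bodies of genes, and it is read and maintained in neurons by methyl-CpG-binding proteins and DNA methyltransferases. MeDIP enrichment rises with the methylation of a fragment and with its number of methylated sites, so a height is not a methylation level. In a bulk culture, methylation in a few cells and weaker methylation in all cells cannot be told apart. Of the 6 genes, 5 encode nuclear regulators. Camta1 encodes a calmodulin-binding transcription activator, Gse1 a protein found with the LSD1-CoREST-HDAC repressor complexes, Zfhx3 and Tshz2 large zinc finger homeobox proteins, and Sox5 an HMG-box factor of the SoxD group that acts in the development of deep-layer cortical neurons. Rbms3 encodes an RNA-binding protein.

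The libraries held 34834 to 93470 called intervals, the fewest in KCl replicate 3 and the most in KCl replicate 1. The depth of each library is unknown, since no read totals were on hand. The assay measures no RNA, so the cell type named in the labels could not be checked by expression of its markers. Regions were found at 6 of 6 neuron, 4 of 4 astrocyte, 3 of 4 oligodendrocyte and 3 of 4 microglia marker genes, which does not separate these cell types.

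Promoters lie at gene starts. RefSeq start windows of 300 bases, which end 50 bases after a start, were on hand for 9 starts of the 6 genes, and 1 of the 9 overlapped an active region. Of all 32851 RefSeq windows 4.85% did. The window with a region was at a start of Zfhx3 inside its gene body (chromosome 8, 108714394 to 108714693, plus strand). A region of 1007 bases (chromosome 8, 108713493 to 108714499) covered the first 106 bases of that window, with 7 of the window's 21 CG dinucleotides. Its heights were 26 and 19 in untreated replicates 1 and 3 and 19 and 13 in KCl replicates 1 and 2, and it was not called in the other two libraries. The stretch inside the region and the stretch from there to the start are shown first, to set the edge of the region beside the part with no call. Windows of 3 genes without a region follow, 2 rich and 1 poor in CG. All are 5′ to 3′ on the gene's strand. The first ends 144 bases before the start and the others end at the start. They are from RefSeq GRCm38.p6, with each CG in capitals.
Zfhx3, inside the region: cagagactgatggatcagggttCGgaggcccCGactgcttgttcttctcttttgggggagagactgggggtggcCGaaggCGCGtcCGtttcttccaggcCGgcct
Zfhx3, outside the region: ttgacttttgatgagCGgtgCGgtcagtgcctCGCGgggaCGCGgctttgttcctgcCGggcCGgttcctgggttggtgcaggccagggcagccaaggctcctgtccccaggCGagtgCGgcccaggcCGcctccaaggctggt
Camta1: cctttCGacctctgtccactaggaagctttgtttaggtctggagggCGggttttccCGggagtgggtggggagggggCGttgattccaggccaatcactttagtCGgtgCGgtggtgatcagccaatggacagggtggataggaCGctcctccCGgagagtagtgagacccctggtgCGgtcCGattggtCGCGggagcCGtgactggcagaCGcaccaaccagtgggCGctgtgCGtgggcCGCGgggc
Gse1, window 3: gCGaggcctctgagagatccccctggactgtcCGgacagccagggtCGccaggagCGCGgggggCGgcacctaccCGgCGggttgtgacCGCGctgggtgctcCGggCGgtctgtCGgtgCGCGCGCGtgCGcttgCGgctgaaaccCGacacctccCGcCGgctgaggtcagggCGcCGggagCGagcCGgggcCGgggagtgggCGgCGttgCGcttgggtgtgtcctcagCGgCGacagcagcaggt
Tshz2: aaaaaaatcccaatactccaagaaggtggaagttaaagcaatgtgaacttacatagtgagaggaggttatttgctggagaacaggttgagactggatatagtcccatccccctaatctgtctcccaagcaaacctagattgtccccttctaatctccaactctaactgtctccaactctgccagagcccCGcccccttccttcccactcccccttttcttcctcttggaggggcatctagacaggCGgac

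Of the CG dinucleotides before the Zfhx3 start, 7 lay in the 106 bases inside the region and 11 in the 144 bases outside it. The Camta1 window (chromosome 4, 151861719 to 151862018, minus strand) held 28 CG over its 300 bases and had its nearest region 2325 bases away. That region was called in untreated replicate 1 and KCl replicate 2 only, at heights of 9 and 8. Gse1 had 3 windows inside its gene body with 17, 23 and 37 CG, and their nearest regions were 5278, 11308 and 12860 bases away. The CG-richest of them lay at chromosome 8, 120537159 to 120537458 (plus strand). Tshz2 had a window with 2 CG (chromosome 2, 169632259 to 169632558, plus strand), 2606 bases from a region that was called in untreated replicate 2 alone, at a height of 10. The windows of Sox5 and Rbms3 held 3, 7 and 7 CG, and an internal start of Rbms3 (chromosome 9, 117252434 to 117252733, minus strand) had a region 371 bases away. The Sox5 window (chromosome 6, 143947057 to 143947356, minus strand) also lay inside the gene body, far from the start of the gene model. No window was on hand at the starts of the Sox5, Gse1 and Zfhx3 gene models.

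CG was searched as the letters CG, which read the same on both strands. Over all windows the share with a region was highest, 11.1%, at 6 to 10 CG and lowest, 1.18%, at 0 CG. It was 2.38% at 21 to 25 CG, the class of the Zfhx3 window, and 1.38% at 31 or more. A window without a region has no call there and is not thereby shown to be unmethylated.

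**Figure D1:**
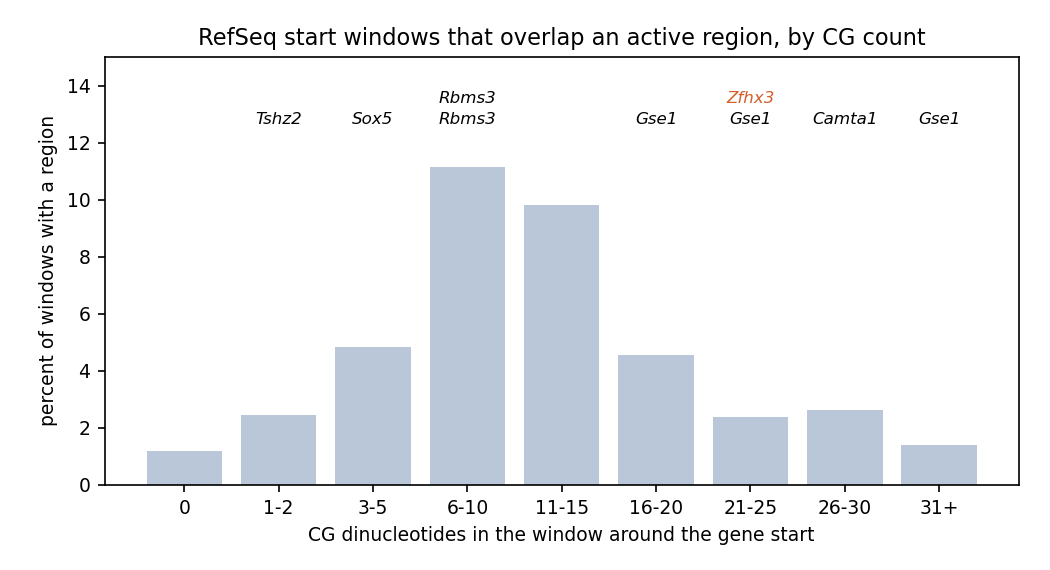
Share of RefSeq start windows (y axis, percent) that overlap an active region, by the number of CG dinucleotides in the window (x axis); gene names mark the class of each of the 9 windows of the 6 genes. Zfhx3, in orange, is the window with a region, and bars are highest at 6 to 10 CG (11.1%) and 11 to 15 CG (9.81%).

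Within 1 kb of either annotated end of the 6 genes there were 2 regions, both at the start of the Zfhx3 gene model. The first (chromosome 8, 108278592 to 108278951) had heights of 22, 27 and 27 untreated and 24 and 14 in KCl replicates 1 and 2, with no call in KCl replicate 3. The second (chromosome 8, 108279621 to 108279779) was called in untreated replicate 1 alone, at a height of 11. The other regions lay further inside the gene bodies. Exons and introns are not given in the gene table used here, so regions were not assigned to them.

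Camta1 (chromosome 4, 151059523 to 151861768, minus strand, 802.2 kb) held 161 regions, or 20.02 per 100 kb. Rbms3 (chromosome 9, 116572746 to 117629913, minus strand, 1057.2 kb) held 143, or 13.5 per 100 kb. Zfhx3 (chromosome 8, 108279311 to 108961636, plus strand, 682.3 kb) held 129, or 18.9. Sox5 (chromosome 6, 143828425 to 144782287, minus strand, 953.9 kb) held 125, or 13.1. Tshz2 (chromosome 2, 169632509 to 170072751, plus strand, 440.2 kb) held 97, or 21.9, and Gse1 (chromosome 8, 120228501 to 120581383, plus strand, 352.9 kb) held 72, or 20.3.

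These are high values for long genes, as the choice of the genes implies. The median of the 557 protein-coding genes of at least 300 kb was 3.71 regions per 100 kb, with quartiles of 2.03 and 6.86. By regions per 100 kb among these 557, Tshz2 ranked 3, Gse1 5, Camta1 6, Zfhx3 8, Rbms3 30 and Sox5 34. By number of regions among all 21900 protein-coding genes, Camta1 ranked 2, Rbms3 3, Zfhx3 4, Sox5 6, Tshz2 10 and Gse1 27. Regions covered 9.72% of the Gse1 window, 9.07% of Tshz2, 8.80% of Camta1 and 8.50% of Zfhx3, but 5.43% of Rbms3 and 4.90% of Sox5.

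The surroundings of the genes were also rich in regions. In the 500 kb upstream there were 11.0 to 17.8 regions per 100 kb, lowest at Gse1 and highest at Tshz2, and in the 500 kb downstream 10.2 to 17.8, lowest at Zfhx3 and highest at Tshz2. Sox5 had fewer regions per 100 kb in its own window (13.1) than in the 500 kb upstream (14.6). For the other 5 genes the gene's own value was above both flanks.

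Positions inside the genes differed. In 10 bins of equal length from the gene start, Zfhx3 held 6, 11, 7, 16, 7, 6, 21, 18, 11 and 26 regions, with most in bins 7, 8 and 10. Its gene model starts far upstream of the start window described above, which lies in bin 7. Camta1 was fullest in bin 7 (24 regions) and emptiest in bin 10 (6). Gse1 was fullest in bins 2 and 10 (13 each) and emptiest in bin 9 (2). Tshz2 was the most even, with 5 to 13 per bin. Sox5 ranged from 6 to 22 and Rbms3 from 6 to 22 as well, Rbms3 with its fewest in bin 1.

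Gaps between neighbouring regions varied in length, and the spacing was not compared with random placement. The median gap between neighbouring regions was 2.15 kb in Gse1, 2.54 kb in Zfhx3, 2.97 kb in Tshz2, 2.98 kb in Camta1, 4.10 kb in Rbms3 and 4.41 kb in Sox5. The fullest 50 kb held 19 regions in Camta1 (453.7 to 503.7 kb from the start) and 19 in Zfhx3 (609.1 to 659.1 kb). It held 18 in Gse1 (23.7 to 73.7 kb), 17 in Tshz2, 14 in Rbms3 and 13 in Sox5. The longest stretch without a region was 40.2 kb in Sox5 (880.2 to 920.4 kb from the start) and 19.1 kb in Tshz2 (54.3 to 73.3 kb), with the other genes between these. Of the Camta1 regions 35 of 161 also lay in another annotated gene, mostly noncoding RNA genes inside Camta1, against 2 of 72 in Gse1. In Zfhx3 it was 13, in Sox5 and Rbms3 6 each, and in Tshz2 3.

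**Figure D2:**
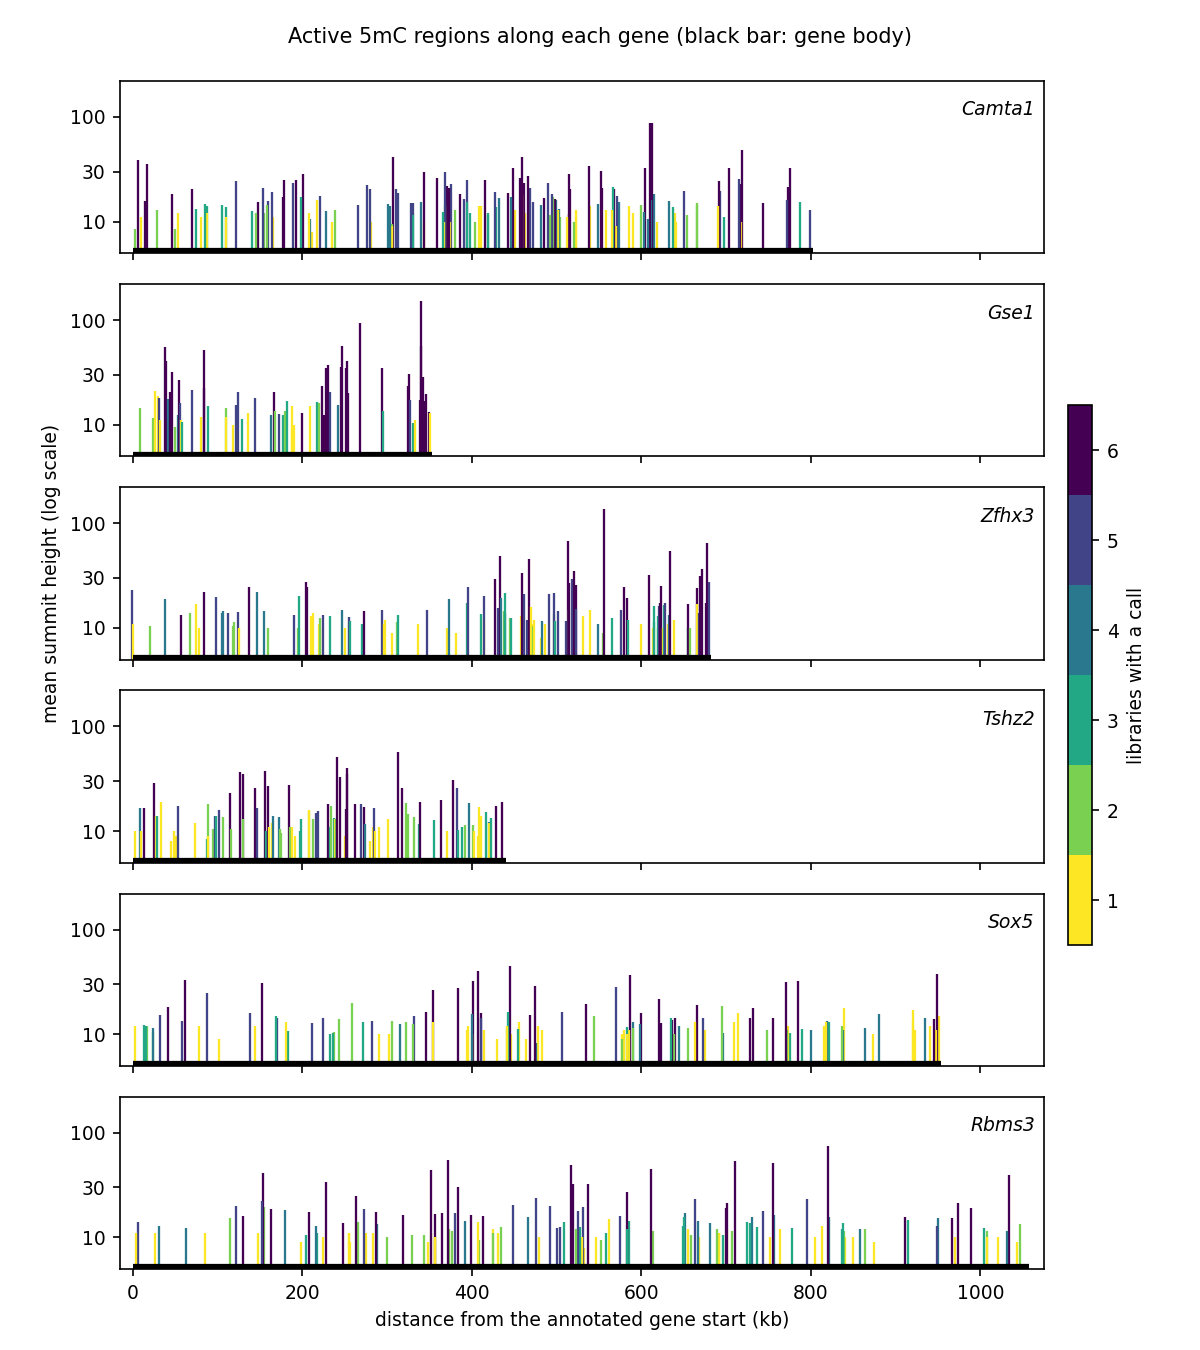
Active regions along each gene: the x axis is the distance from the annotated gene start in kb, the y axis the mean summit height over the libraries with a call (log scale), and the colour the number of libraries with a call. The tallest lines are in the last bin of Gse1 (mean height 152) and in bin 9 of Zfhx3 (136), and both were called in all 6 libraries.

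For each gene, the 2 regions of highest mean height among those called in all 6 libraries had heights that overlapped between the groups. A summit height is the authors' value for an interval, a whole number of at least 6. Each region takes a library's highest summit. The region of greatest mean height lay in Gse1 (chromosome 8, 120567583 to 120568711), 339.65 kb from the start. Its heights were 160, 194 and 124 untreated and 186, 150 and 100 with KCl. It ranked 29 of the 133337 regions by mean height, and the groups overlapped. Gse1 had a second tall region (chromosome 8, 120496414 to 120497044) at 103, 113 and 74 untreated and 115, 97 and 56 with KCl.

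In Zfhx3 the tallest region (chromosome 8, 108834454 to 108835214) had heights of 136, 170 and 115 untreated and 168, 134 and 90 with KCl, and ranked 59. The next in Zfhx3 (chromosome 8, 108791870 to 108793411) was 1542 bases wide, with 72, 90 and 54 untreated and 88, 68 and 37 with KCl. Again the lowest of the 6 heights was that of KCl replicate 3 in each case, and KCl replicate 1 stood among the highest.

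Camta1 had 2 neighbouring regions of equal mean height, 86.8. The first (chromosome 4, 151249110 to 151249811) read 92, 102 and 70 untreated and 116, 80 and 61 with KCl, and the second (chromosome 4, 151251003 to 151251948) 97, 109 and 77 untreated and 103, 85 and 50 with KCl. Rbms3 was highest at chromosome 9, 116809861 to 116810557, with 74, 84 and 68 untreated and 103, 71 and 44 with KCl. Its second region (chromosome 9, 117257817 to 117258230) had 62, 61 and 58 untreated and 71, 43 and 31 with KCl. In 3 of these 4 regions the KCl heights reached both above and below the untreated range; in the second Camta1 region they reached below it and not above it.

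The tallest regions of Tshz2 and Sox5 were lower. In Tshz2 they had 60, 78 and 47 untreated and 60, 55 and 38 with KCl (chromosome 2, 169944367 to 169945366), and 53, 64 and 50 untreated and 60, 47 and 32 with KCl (chromosome 2, 169873074 to 169873743). In Sox5 they had 55, 53 and 41 untreated and 61, 43 and 16 with KCl (chromosome 6, 144336884 to 144337216), and 33, 52 and 45 untreated and 45, 45 and 23 with KCl (chromosome 6, 144375268 to 144375814). The untreated and KCl heights overlapped in all 12 of these regions. Overlap was also usual elsewhere. Of the 20537 regions of the genome tested below, all 3 KCl heights were above all 3 untreated heights in 0.0292% and below them in 4.14%.

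How often a region was found again differed between the genes. Gse1 had 29 of 72 regions (40.3%) called in all 6 libraries and 14 (19.4%) called in 1. Sox5 had 27 of 125 (21.6%) called in all 6 and 38 (30.4%) called in 1. Camta1 had 26.1% called in all 6, Tshz2 24.7%, Rbms3 21.7% and Zfhx3 20.9%, and over all active regions of the series 20.5% were called in all 6 and 29.3% in 1. A mean height of at least 25.2, the 90th percentile of all regions, was reached by 23.6% of the Gse1 regions, by 15.46% in Tshz2, 13.7% in Camta1, 13.2% in Zfhx3, 10.4% in Sox5 and 9.79% in Rbms3.

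**Figure D3:**
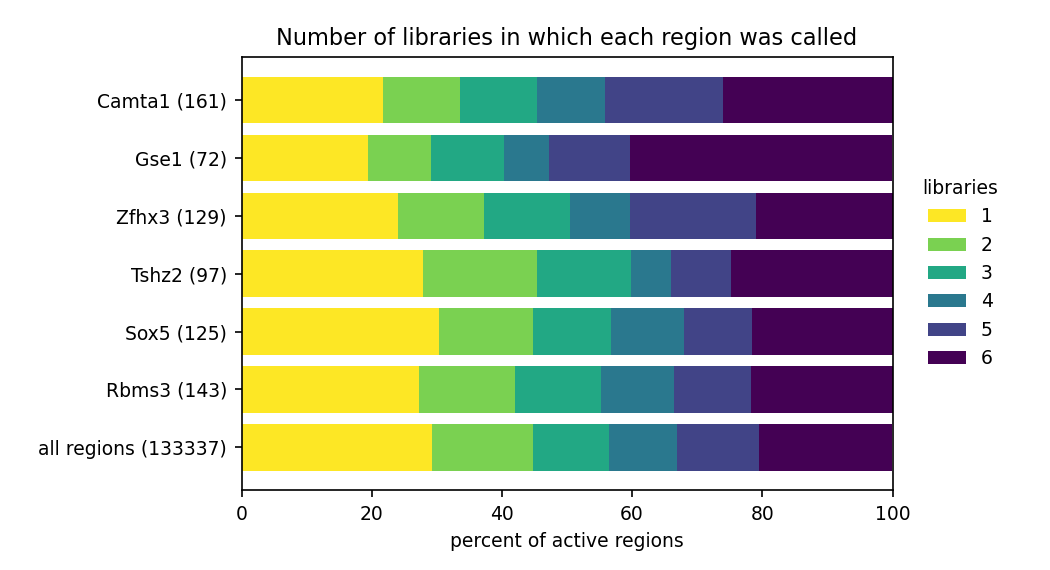
Share of active regions (x axis, percent) called in 1 to 6 libraries, for each gene and for all regions of the series, with the number of regions in brackets. The bar of Gse1 has the widest segment for 6 libraries, 40.3% against 20.5% over all regions.

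Per library, the genes fell into 2 levels. Called intervals per 100 kb in the untreated libraries were highest in Gse1, with 14.93, 15.50 and 15.22 (mean 15.2 ± 0.282, SD, n = 3). Camta1 had 15.9, 14.7 and 12.3 (14.3 ± 1.83), Zfhx3 14.03, 14.03 and 11.98 (13.4 ± 1.18) and Tshz2 15.2, 12.7 and 11.3 (13.0 ± 1.95). These 4 genes overlapped in their ranges between each pair of neighbours in the order. Rbms3 had 9.16, 8.78 and 8.59 (8.84 ± 0.288) and Sox5 8.06, 8.37 and 7.64 (8.02 ± 0.367), and neither range overlapped its neighbour's. The order over all libraries together was led by Tshz2 and not by Gse1, and 27.8% of the Tshz2 regions were called in 1 library, against 19.4% in Gse1.

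With KCl the same genes gave lower means and a much wider spread. Gse1 had 16.1, 13.0 and 9.86 intervals per 100 kb in KCl replicates 1 to 3 (13.0 ± 3.10), Camta1 14.8, 11.2 and 5.97 (10.6 ± 4.44) and Zfhx3 13.7, 9.65 and 5.26 (9.55 ± 4.24). Tshz2 had 16.5, 10.4 and 6.33 (11.1 ± 5.12), Rbms3 10.2, 4.63 and 3.78 (6.20 ± 3.49) and Sox5 8.68, 6.28 and 3.66 (6.21 ± 2.51). KCl replicate 1 was above all 3 untreated libraries in Gse1, Tshz2, Rbms3 and Sox5, and KCl replicates 2 and 3 were both below them in all 6 genes.

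Over the 6 genes together the means were 11.4 ± 0.826 untreated and 8.63 ± 3.64 with KCl, a difference of -2.73 (exact permutation test, two-sided, p = 0.4; smallest possible 0.1). For the single genes the differences were between -3.80 in Zfhx3 (exact p = 0.2) and -1.81 in Sox5 (exact p = 0.4), and adjusted over the 7 comparisons p was 0.467 to 0.6. With 3 libraries against 3 no comparison could reach 0.05. Without KCl replicate 3 the difference over the 6 genes was -0.996, and without KCl replicate 1 it was -4.62.

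The whole libraries varied in the same way. The share of a library's intervals that lay in the 6 genes was 0.594%, 0.570% and 0.616% untreated and 0.571%, 0.586% and 0.637% with KCl. Means were 0.593% ± 0.0226 and 0.598% ± 0.0347 (exact permutation p = 0.9, two-sided). When each library kept only its 34834 highest intervals, the 6 genes had 5.41 ± 0.356 per 100 kb untreated and 5.22 ± 0.134 with KCl (exact permutation p = 0.6). Gse1 then had 8.79, 8.89 and 8.17 untreated and 9.60, 9.34 and 9.86 with KCl, so the groups no longer overlapped and the direction turned (exact p = 0.1, adjusted over 7 comparisons 0.7). The other 5 genes overlapped between groups. An exact p of 0.1 is the smallest possible here, and any gene whose groups do not overlap reaches it. The share of all genes without overlap at this setting was not determined, so the Gse1 values do not set it apart.

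**Figure D4:**
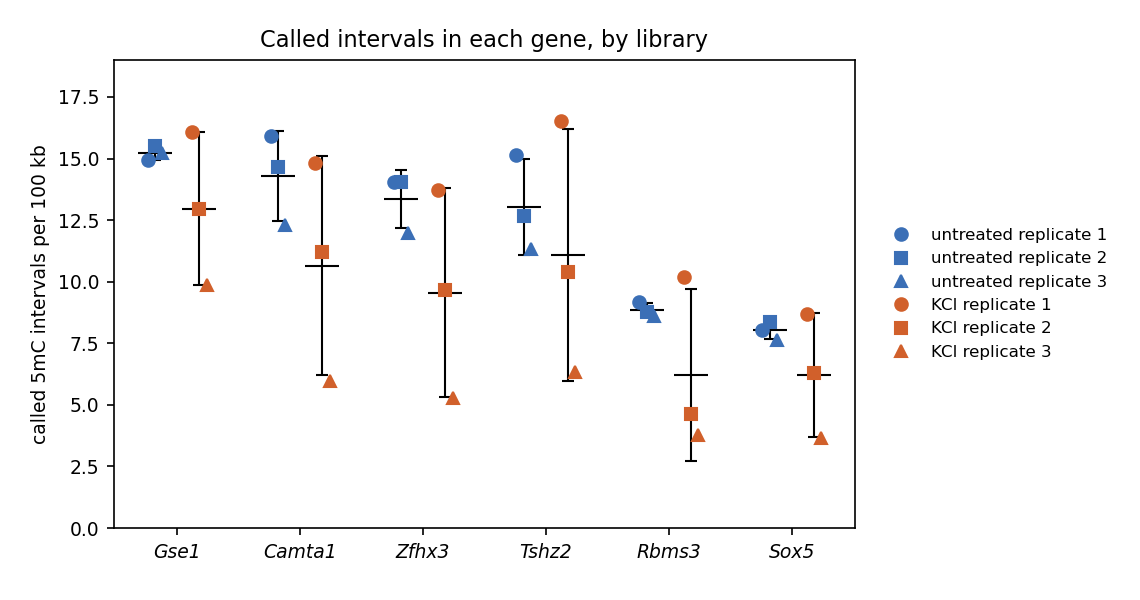
Called 5mC intervals per 100 kb of each gene window (y axis) in each library; points are libraries, blue untreated and orange KCl, and black lines give the mean and SD (n = 3). KCl replicate 3, the orange triangle, is the lowest point in all 6 genes, and Rbms3 and Sox5 lie below the other 4 genes in the untreated libraries.

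Heights, too, overlapped between the groups. The 180 regions of the 6 genes called in all 6 libraries had mean heights of 33.1, 35.2 and 29.3 untreated and 36.7, 27.5 and 19.2 with KCl. KCl replicate 1 was the highest of the 6 libraries and KCl replicate 3 the lowest. Means were 32.5 ± 3.00 untreated and 27.8 ± 8.74 with KCl (SD, n = 3), lower by 4.73 with KCl on average (difference -4.73, two-sided exact permutation p = 0.5). Over all 27310 such regions of the series the difference was -4.08. Without KCl replicate 3 the difference in the 6 genes was -0.444, and without KCl replicate 1 it was -9.18. Divided by the median height of each library's shared regions, the means ran from 1.20 to 1.27 and differed between groups by 0.00284. By gene, mean untreated heights ran from 26.1 ± 2.16 in Sox5 to 39.0 ± 2.98 in Gse1.

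Region by region, no region of the 6 genes passed with KCl. The test was limma on log2(height + 1) over all regions of the genome called in all 6 libraries whose mean height was not under percentile 25 of such regions. Of the 727 regions 180 were called in all 6 libraries and 132 passed the filter: 33 in Camta1, 24 in Gse1, 22 in Zfhx3, 20 in Rbms3, 18 in Tshz2 and 15 in Sox5. At an adjusted p under 0.05, limma called 0 of the 132 higher and 0 lower, against 0% of the 20537 regions tested in each direction, with 0.932 as the smallest adjusted p. Without adjustment, 0 higher and 5 lower had a p under 0.05 (3.79%, against 1.12% over all tested regions). That count was 46 of 135 without KCl replicate 1, where 4325 of all 20796 regions were lower by the same limit. It was 0 of 134 without untreated replicate 2, where only 40 of all 20898 regions were lower and 2 higher. After each library was centred on its median, which removes a general shift of -0.25, 3 were higher (2.27%, against 1.97%) and 3 lower (2.27%, against 1.67%).

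Changes below are relative to the median tested region of the genome, on the log2(height + 1) scale, with SEs from the fit after centring. Of the 132 regions 49 lay above and 83 below it, with a median of -0.066 against 0 over all regions, where 50% lie above. Medians by gene were -0.017 in Gse1, -0.030 in Zfhx3, -0.074 in Camta1, -0.082 in Tshz2, -0.11 in Sox5 and -0.14 in Rbms3. The 132 passed through a filter on height and are not all members. In heights as deposited, all 3 KCl values were above all 3 untreated values in 1 region (0.758%, against 0.0292% of all tested regions) and below them in 8 (6.06%, against 4.14%). After centring this was 3 above (2.27%, against 4.67%) and 9 below (6.82%, against 3.89%).

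The region furthest above the median was in Tshz2 (chromosome 2, 170010384 to 170010921), 378.14 kb from the start. Its heights were 29, 21 and 28 untreated and 35, 38 and 32 with KCl, so the groups did not overlap as deposited, although they did after centring. The relative change was 0.67 (limma SE 0.21), with an adjusted p of 0.932 for deposited heights and 1.00 for centred ones, and without single libraries it ranged from 0.45 to 0.88. With centring and a replicate block limma gave an adjusted p = 0.739. In Camta1 a region at chromosome 4, 151682650 to 151683074, which also lies in the noncoding RNA gene Gm38442, had 19, 28 and 17 untreated and 41, 25 and 19 with KCl (relative change 0.60, limma SE 0.21). Those groups overlapped as deposited and not after centring.

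The region furthest below the median was in Zfhx3 (chromosome 8, 108484839 to 108485377). Its heights were 31, 33 and 30 untreated and 25, 20 and 9 with KCl, with no overlap before or after centring. The relative change was -0.63 (limma SE 0.22), with the same adjusted p values, and without single libraries it ranged from -0.74 to -0.45. In Sox5 a region at chromosome 6, 144195061 to 144195437 had 44, 50 and 41 untreated and 49, 25 and 14 with KCl (relative change -0.52, limma SE 0.19), and KCl replicate 1 lay within the untreated range as deposited, though not after centring. Without KCl replicate 3 that change was -0.33, and without KCl replicate 1 it was -0.755. Another Sox5 region (chromosome 6, 144397853 to 144398325) fell further, with 34, 35 and 35 untreated and 30, 19 and 13 with KCl. Its relative change was -0.55 (limma SE 0.20, adjusted p = 0.932 as deposited), with no overlap before or after centring. By unadjusted limma p after centring it came just behind the Sox5 region named first (0.01054 against 0.01014). In Gse1 a region at chromosome 8, 120311805 to 120312256 had 29, 34 and 22 untreated and 17, 16 and 17 with KCl (-0.46, limma SE 0.23). Its change was -0.26 when KCl replicate 1 was left out and -0.71 when KCl replicate 3 was. In Rbms3 heights at chromosome 9, 117466684 to 117467140 were 20, 27 and 23 untreated and 18, 12 and 12 with KCl (-0.46, limma SE 0.24). In both the Gse1 and the Rbms3 region the groups did not overlap as deposited but did after centring.

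The remaining leading regions changed less. They were at relative changes of 0.37 in Gse1 (chromosome 8, 120451707 to 120452112), 0.31 in Zfhx3 (chromosome 8, 108706205 to 108706803), 0.28 in Rbms3 (chromosome 9, 116595659 to 116596572) and 0.23 in Sox5 (chromosome 6, 144380175 to 144380482). In the other direction they were at -0.41 in Camta1 (chromosome 4, 151347383 to 151347826) and -0.31 in Tshz2 (chromosome 2, 169885300 to 169886128). Their limma SEs lay between 0.16 and 0.23, and none had an adjusted p below 0.932. Leaving out single libraries moved 4 of them by over 1.5 times. The Gse1 value was 0.23 without untreated replicate 1, 0.57 without untreated replicate 3, 0.62 without KCl replicate 1 and 0.21 without KCl replicate 3. In Zfhx3 it was 0.15 without untreated replicate 2, in Rbms3 0.16 without untreated replicate 2 and 0.18 without KCl replicate 3, and in Sox5 0.14 without KCl replicate 2.

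**Figure D5:**
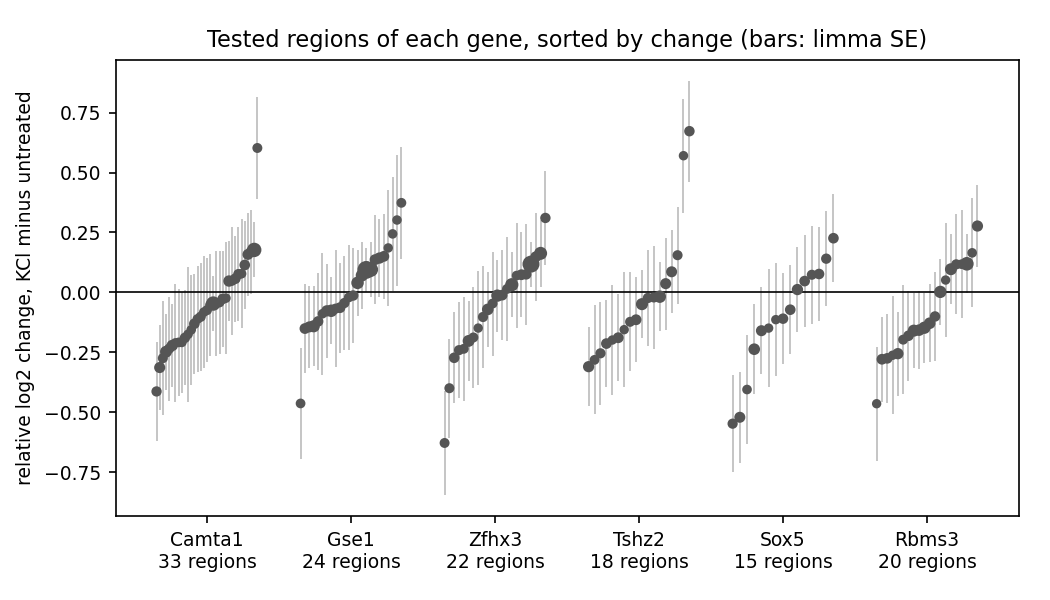
Relative log2 change, KCl minus untreated, of the 132 tested regions (y axis), grouped by gene and sorted within it; bars are limma SEs after centring and larger points have a greater mean height. The extremes are 0.67 in Tshz2 and -0.63 in Zfhx3.

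Few regions were called in one group only. In the 6 genes 10 of 727 regions (1.38%) were called in all 3 untreated and no KCl library, against 1.01% of all active regions, and 1 (0.138%) in all 3 KCl and no untreated library, against 0.0367%. The 10 were 4 in Zfhx3, 3 in Gse1, 2 in Tshz2 and 1 in Rbms3, at mean heights of 10.3 to 15.3. The single KCl region was in Camta1 (chromosome 4, 151441860 to 151442392), with heights of 15, 12 and 8, and is named here after its values were seen. The counts changed with the libraries used. Without KCl replicate 1 there were 42 untreated-only regions (5.78%, against 5.23% of all regions), and KCl-only regions stayed at 1. Without KCl replicate 3 there were 7 KCl-only regions (0.963%, against 0.827%), and untreated-only regions stayed at 10.

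Relatives and partners of the 6 genes were listed for comparison. Of 19 such genes 18 had a region, with 215 regions in all, and of their 35 tested regions 0 passed limma, with 9 above and 26 below the median. The share of all protein-coding genes with a region is not given here, so 18 of 19 does not set these genes apart. Sox6, the SoxD relative of Sox5, was the longest of them (569.9 kb) and held 86 regions, 15.0 per 100 kb, of which 12 were called in all 6 libraries and all 10 tested lay below the median region. Tshz1 and Tshz3, teashirt relatives of Tshz2, held 24 and 13 regions (30.7 and 16.8 per 100 kb). Zfhx4 held 18 and Zfhx2 8, none of them called in all 6 libraries. Rbms1 held 27 and Rbms2 3, Sox13 6 and Camta2 2. The Camta2 regions were called in untreated replicate 2 alone.

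The 10 partners of Gse1 in the LSD1-CoREST-HDAC complexes that are described here held 28 regions together. Kdm1a, which encodes the demethylase LSD1, had no region. The corepressor genes Rcor1, Rcor2 and Rcor3 held 7, 2 and 4 regions, and the deacetylase genes Hdac1 and Hdac2 3 and 4. Phf21a held 4, Zmym3 2, and Hmg20b and Zmym2 1 each. Of the 10 tested regions in these partners 4 lay above and 6 below the median region.

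For each of the 6 genes, the long gene with the nearest profile over the 6 libraries was found. All genes share the differences in called intervals between libraries, and the nearest of many candidates is bound to be close. The likeness is therefore a description only. By Euclidean distance of log2(intervals per 100 kb + 1) over 6 libraries, among 2423 other protein-coding genes of at least 100 kb, the nearest to Gse1 was Nfatc2 (0.170) and to Sox5 Sash1 (0.189). Nearest to Camta1 was Osbpl10 (0.241), to Tshz2 Grik3 (0.267), to Zfhx3 Plcg2 (0.268) and to Rbms3 Srrm4 (0.272). Nfatc2 had 14.2, 15.7 and 14.2 intervals per 100 kb untreated and 14.9, 12.6 and 10.2 with KCl, beside the Gse1 values above. The 6 nearest genes were 125.2 to 254.8 kb long, shorter than any of the 6 genes described here.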

How the data were processed

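The libraries were built and analysed by a service company, per the labels' protocols. Per the submitters' processing notes, which give no versions, BWA and SICER were used with the build mm10. The deposited signal heights came as 1 summit track and 1 interval track per library, per the file headers, with a further track of active regions. Of the 133337 active regions 99.98% equalled the merge of the 6 libraries' intervals. Whether the authors scaled heights between libraries is not stated, and for read totals, filters and caller settings the same holds: not given in the sources used here. BED starts were raised by 1 to give 1-based coordinates.

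Regions were tested with limma 3.58.1 in R 4.3.3 (intensity trend, Benjamini-Hochberg adjustment over 20537 regions, threshold 0.05, two-sided), which was tested on simulated data. Single values per library were tested by exact permutation (scipy 1.17.1). Intervals per 100 kb use the gene body plus 1 kb on each side. The members and lists were chosen with earlier results of these data known, and a further gene of the partner list is not reported here.

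Named regions are, for each gene, the 2 of highest mean height called in all 6 libraries, the tested region with the lowest p after centring on each side of the median region, and all regions at a gene end. Same-numbered libraries of both groups deviated together weakly, with correlations of 0.113, 0.108 and 0.114 over regions. For different numbers they were -0.088 to -0.014. Deviations from group means cancel within a group, so positive values for same numbers make the others negative on balance. No label explains the replicate numbers, so whether they mark pairs is not known, and the main tests did not use them. A replicate block was run as an alternative, with other pseudocounts, filters, windows and left-out libraries.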

Additional observations from a re-analysis of the deposited data

How the results depend on the processing

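The count of 0 regions of the 6 genes past limma's threshold held under all 20 alternatives, among them the replicate block (0), with 132 to 255 of their regions tested. Its lowest adjusted p was 0.177, without KCl replicate 1, and 0.739 or above in every other. The changes of the 12 leading regions kept their sign in the alternatives in which they were followed. These were 19 for 11 of the regions and 15 for the lower region of Rbms3, which was not tested without untreated replicates 2 or 3. The leading regions were not followed in the fit to regions called in at least 2 libraries of each group. The replicate block changed no call. The paired difference over the 6 genes was -2.73 intervals per 100 kb and -4.73 in height (exact sign-flip test, p = 0.5 for both, smallest possible 0.25).

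Regions per 100 kb depend on the calls counted. In regions called in all 6 libraries they were 5.22 in Camta1, 8.17 in Gse1, 3.94 in Zfhx3, 5.43 in Tshz2, 2.83 in Sox5 and 2.93 in Rbms3, which puts Gse1 first. In regions called in at least 2 libraries they were 15.7, 16.3, 14.3, 15.8, 9.10 and 9.82, with the genes listed as before. With mean heights at or above the median region they were 14.4, 15.2, 11.7, 13.6, 6.80 and 6.89, again with the genes listed as before. Gse1 was first by each of these counts. Tshz2 came above Camta1 by the counts of calls and below it by the count with a height limit. Leaving out single libraries, added after the data were seen, gave 18.53 to 19.9 in Camta1, 18.9 to 20.3 in Gse1, 17.4 to 18.7 in Zfhx3, 19.2 to 21.9 in Tshz2, 11.93 to 13.1 in Sox5 and 11.99 to 13.5 in Rbms3.

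Differences between groups reversed as follows. With equal numbers of highest intervals Gse1 was 0.981 higher with KCl, and Tshz2 ranged from -4.67 without KCl replicate 1 to 0.415 higher without KCl replicate 3. The share of intervals in the 6 genes differed by 0.00468 percentage points, by -0.0224 with equal numbers of intervals, and by -0.0149 to 0.0181 without single libraries. Height differences, -4.73 as deposited, were 0.00284 after scaling to each library's median, in units of that median. Unknown read totals limit what the missing calls of KCl replicate 3 can show. The cause of these changes was not tested.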
